A study of Mus musculus with 12 samples.

Results

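The genes described are 33 genes of cholesterol handling in 3T3-L1 adipocytes: 20 enzymes of cholesterol synthesis, 5 regulators of the SREBP pathway, 5 genes of uptake, transport and storage, and 3 genes of export and exchange with high-density lipoprotein. They were chosen by gene symbol from knowledge of the pathway, with earlier results of these data known. Each symbol matched 1 Ensembl identifier among the 28948 genes listed, by GENCODE M21 on mouse assembly GRCm38. RNA was sequenced in 12 libraries, with 3 in each of 4 groups: cells with constitutive overexpression of Foxp1, their empty vector controls, cells with a short hairpin RNA (shRNA) against Foxp1, and their scrambled shRNA controls. The 3T3-L1 line came from Swiss mouse embryos and turns from fibroblast-like cells into fat cells in culture. All groups were differentiated with insulin at 5 µg/ml, troglitazone, an agonist of the fat cell regulator PPARγ, at 10 µM, isobutylmethylxanthine at 0.5 mM and the glucocorticoid dexamethasone at 1 µM. Insulin alone followed from day 4, and plain growth medium from day 6. When cells were harvested, which promoter drove the construct, and whether a line came from a single clone or a replicate from a separate dish are not given in the sources used here, so p-values measure the spread between these libraries, which may be technical.

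Cholesterol is built from acetyl-CoA through mevalonate and isoprenoid units to squalene, which is closed into lanosterol and then trimmed to cholesterol. The transcription factors SREBP1 and SREBP2, encoded by Srebf1 and Srebf2, are held in the endoplasmic reticulum by the escort protein SCAP and the INSIG proteins while sterol is plentiful. When sterol falls they move to the Golgi, are cut, and switch on the synthesis genes in the nucleus. Fat cells store much of the body's free cholesterol in the coat of their lipid droplets, and return it to the blood through ABC transporters and the scavenger receptor SR-BI.

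Levels are in RPKM, which divides reads by exon length and by library size. Between 35252016 and 38449998 assigned reads per library were recovered from the values, and the members had between 539 reads (Lbr) and 45651 reads (Npc2) in a library. All 33 members were among the 11245 genes tested, which had at least 1 RPKM in at least 3 libraries. Fold changes are log2 differences of RPKM + 1, which understates those of low genes, and a gene was called at a limma adjusted p under 0.05 over all 11245 genes. Foxp1 itself was 5.78, 7.16 and 6.75 RPKM in overexpressing cells against 1.83, 1.76 and 1.82 RPKM in empty vector cells, and 1.11, 1.14 and 1.08 RPKM in knockdown cells against 2.24, 2.20 and 2.11 RPKM in scrambled cells (log2 fold changes 1.43 and -0.59, adjusted p = 1.19e-09 and 7.4e-06). Mature fat cell markers were high throughout, with Adipoq at 422.4 RPKM or more in every library. Transcripts of the mitochondrial genome took 9.65% to 13.1% of reads in overexpressing cells against 8.61% to 9.35% in empty vector cells, and 5.97% to 6.82% in knockdown cells against 4.80% to 5.69% in scrambled cells. Overexpression replicate 3 had the highest share, at 13.1%, beside 9.99% and 9.65% in replicates 1 and 2. The members' counts with reads outside the mitochondrial genome as library size are given beside each comparison.

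The stretches upstream of the RefSeq starts are shown for 5 members, picked after their values were seen, to let the sequence be read beside the levels. All 5 windows lie outside the gene as GENCODE annotates it. Hmgcs1 is the member whose window holds the sterol regulatory element searched for, Mvd, Nsdhl and Sc5d are synthesis genes whose levels moved in opposite directions with more and with less Foxp1, and Mylip was lower in both. Each is the 250 bases before the start in RefSeq (build GRCm38.p6), 5′ to 3′ on the strand of the gene. Capitals mark a CCAAT box (bound by NF-Y, a partner of SREBP; ATTGG on the other strand), the SREBP site TCACNCCAC or the E-box CACGTG.

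Hmgcs1 (chr13:119690101-119690350, plus strand): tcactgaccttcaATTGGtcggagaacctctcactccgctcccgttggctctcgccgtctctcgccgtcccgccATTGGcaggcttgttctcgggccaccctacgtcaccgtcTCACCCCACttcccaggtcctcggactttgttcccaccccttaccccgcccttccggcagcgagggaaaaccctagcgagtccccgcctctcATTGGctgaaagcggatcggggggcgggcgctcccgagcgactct
Mvd (chr8:122443423-122443672, minus strand): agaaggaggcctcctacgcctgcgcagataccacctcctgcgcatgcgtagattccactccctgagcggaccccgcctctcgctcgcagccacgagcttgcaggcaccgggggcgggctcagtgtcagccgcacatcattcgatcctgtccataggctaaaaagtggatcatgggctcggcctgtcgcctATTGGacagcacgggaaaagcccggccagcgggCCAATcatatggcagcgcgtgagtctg
Nsdhl (chrX:72918271-72918520, plus strand): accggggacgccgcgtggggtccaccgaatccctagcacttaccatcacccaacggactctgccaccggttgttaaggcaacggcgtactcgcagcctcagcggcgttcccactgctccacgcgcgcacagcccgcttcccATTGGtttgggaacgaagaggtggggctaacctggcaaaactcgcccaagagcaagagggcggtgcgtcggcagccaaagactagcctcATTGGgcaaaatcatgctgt
Sc5d (chr9:42264301-42264550, minus strand): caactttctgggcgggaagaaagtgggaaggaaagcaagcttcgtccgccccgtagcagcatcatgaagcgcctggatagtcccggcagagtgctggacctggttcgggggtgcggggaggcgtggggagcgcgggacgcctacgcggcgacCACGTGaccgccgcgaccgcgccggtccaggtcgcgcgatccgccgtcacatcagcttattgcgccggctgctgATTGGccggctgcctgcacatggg
Mylip (chr13:45389492-45389741, plus strand): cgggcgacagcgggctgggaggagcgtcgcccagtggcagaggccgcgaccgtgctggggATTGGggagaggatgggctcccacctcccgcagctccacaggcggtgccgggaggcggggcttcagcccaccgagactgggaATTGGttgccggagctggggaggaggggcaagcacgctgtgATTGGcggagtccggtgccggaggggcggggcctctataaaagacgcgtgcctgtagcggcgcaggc

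RefSeq windows were at hand for 26 of the 33 members, 34 windows in all, and 21 of these reach into the gene as GENCODE annotates it, since some RefSeq starts are internal or lie downstream of the GENCODE start. On either strand, CCAAT occurred in 23 of these 26 genes (88.5%), against 3416 of 8362 tested genes with a window (40.9%). TCACNCCAC occurred in Hmgcs1 alone of the 26 (3.85%), 129 to 137 bases before the start, against 1.16% of the tested genes. CACGTG occurred in 6 of 26 (23.1%; Abca1, Dhcr7, Hsd17b7, Insig1, Sc5d and Scap), against 10.3%, and the forkhead motif TGTTTAC in 0 of 26, against 2.57%. No pair of these motifs shares bases in the windows printed, and a match or its lack says nothing here on binding.

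With Foxp1 overexpressed, the synthesis pathway was lower at most of its steps, and Insig1, Mylip, Soat1 and Abcg1 fell too. The members that rose were the lysosomal carrier Npc2, the synthesis enzyme Sqle, the lipoprotein receptor Scarb1 and, more narrowly, Srebf1, Scap and Abca1. The largest fall was that of Cyp51, to 0.381 times its level in empty vector cells, and the largest rise that of Npc2, to 1.59 times. Of the 33 members 19 fell, where 20.3% of all tested genes fell, and 6 rose, where 31.0% of all tested genes rose. The members' median log2 fold change was -0.29, beside 0.04 over all tested genes. With libraries rescaled to TPM, 21 members fell and 3 rose, beside 22.9% and 21.7% of all genes. With mitochondrial reads left out of library size the counts were again 19 and 6, and without overexpression replicate 3 they were 19 and 5. The count of members that rose was 3 without overexpression replicate 2, without empty vector replicate 1 and with no filter on low values. In bulk RNA, fewer cells of a type and less RNA per cell cannot be told apart.

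With Foxp1 knocked down, most synthesis enzymes and the sterol carrier Stard4 were higher. The members that fell were the synthesis enzymes Cyp51 and Msmo1, with Insig1, Mylip, Npc1, Npc2, Scarb1 and Abcg1. The largest rise was that of Dhcr7, to 1.61 times its level in scrambled cells, and the largest fall that of Scarb1, to 0.685 times. Of the 33 members 14 rose, where 18.7% of all tested genes rose, and 8 fell, where 31.0% of all tested genes fell. Their median was 0.04, beside -0.04 over all tested genes. Median-ratio scaling gave 15 members up and 8 down, beside 24.7% and 24.8% of all genes, and leaving mitochondrial reads out of library size gave 15 and 8.

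Markers of cell state also differed between the groups. Of all tested genes 31.0% rose and 20.3% fell with overexpression, and 18.7% rose and 31.0% fell with knockdown. All 10 mature fat cell markers fell with overexpression, with summed levels of 3990 to 4190 RPKM in overexpressing libraries against 8570 to 8710 RPKM in empty vector libraries. With knockdown 6 rose and 3 fell, with sums of 9450 to 10000 RPKM in knockdown libraries against 6940 to 7180 RPKM in scrambled libraries. Cidec alone reached 4148 RPKM in a knockdown library. Between the controls, 7 of these 10 markers were lower and 1 higher in scrambled cells, beside 27.0% and 44.8% of all tested genes. There 13 of the 20 synthesis enzymes were higher and 4 lower. Of 7 markers of undifferentiated cells 6 were tested, with 3 up and 2 down under overexpression (sums of 501 to 524 RPKM in overexpressing libraries against 404 to 430 RPKM in empty vector libraries) and 0 up and 3 down under knockdown (440 to 478 RPKM in knockdown libraries against 476 to 525 RPKM in scrambled libraries). Cd34 of that list was near 0, at 0.0216 to 0.0714 RPKM. The part of these shifts in the members' changes was not tested. Endothelial, liver and steroid cell markers were all too low to test, at 0.982 RPKM or less for any gene in any library, and of the macrophage markers Cd68 alone was tested, with Adgre1, Ptprc and Itgam at 0.00839 RPKM or less.

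**Figure D1:**
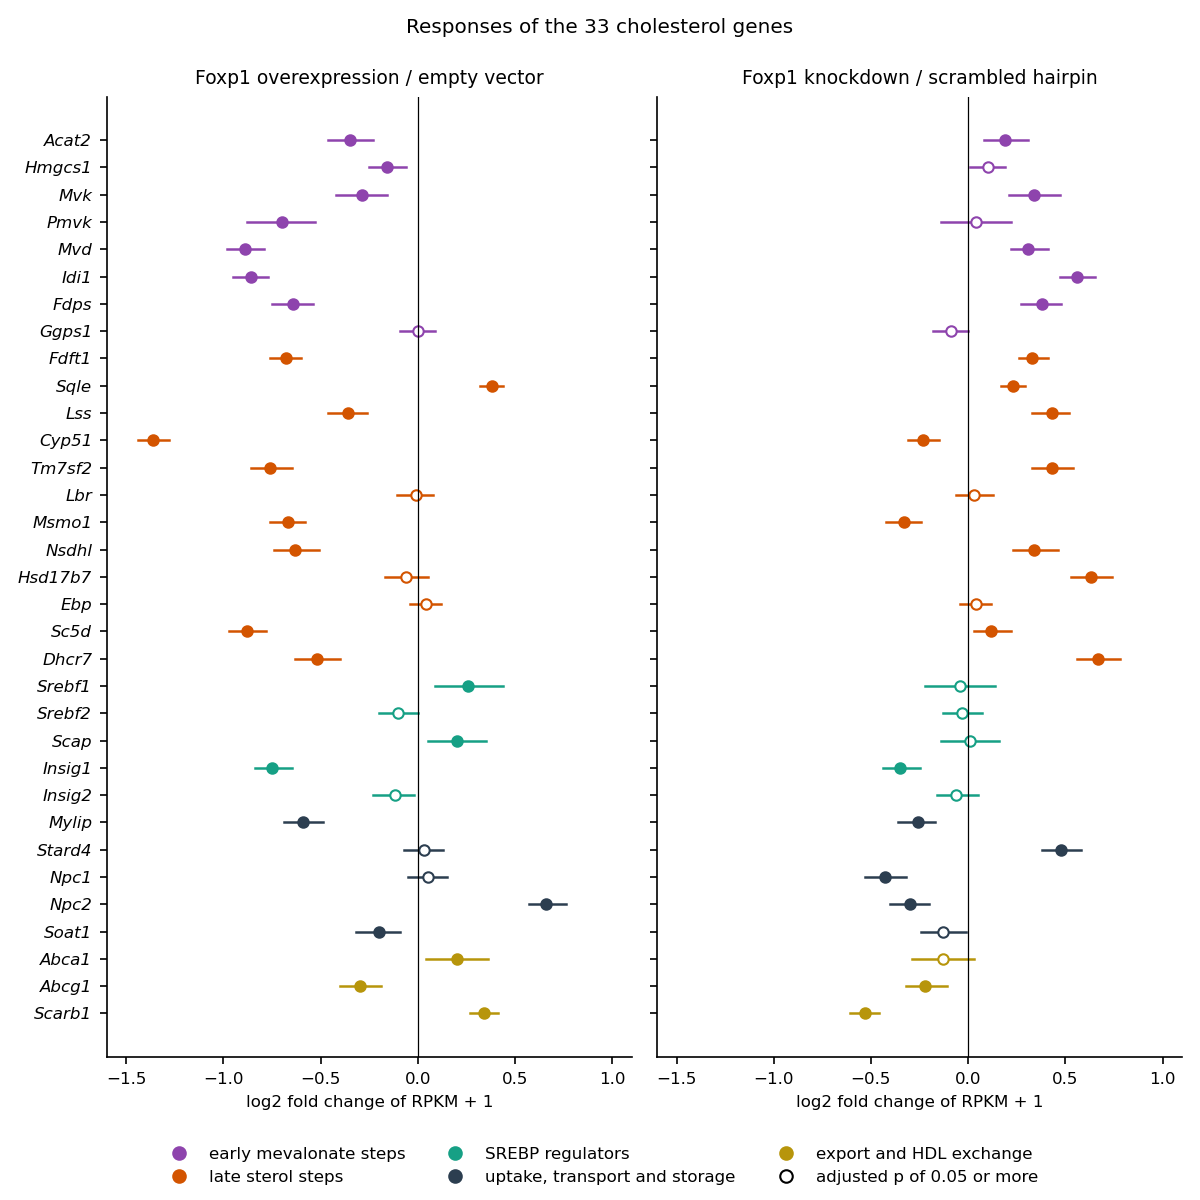
Log2 fold changes of RPKM + 1 for the 33 members, overexpression over empty vector on the left and knockdown over scrambled hairpin on the right. Points are estimates with 95% intervals from the fit over 12 libraries, colours are roles, and open points did not pass the threshold. Most synthesis genes lie left of 0 under overexpression and right of 0 under knockdown, with Cyp51 and Msmo1 left of 0 in both.

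The early steps run from acetyl-CoA to the isoprenoid diphosphates, and most were lower with overexpression and higher with knockdown. Under overexpression 7 of the 8 genes fell and 0 rose (median -0.50), beside 20.3% and 31.0% of all tested genes. Under knockdown 5 rose and 0 fell (median 0.25), beside 18.7% and 31.0% of all tested genes. The gene without a call in either comparison was Ggps1, which makes geranylgeranyl diphosphate and so leads out of the sterol path. It was at 5.66 ± 0.272 RPKM in overexpressing cells and 5.64 ± 0.0409 RPKM in empty vector cells (SD, n = 3 each), with an interval of -0.09 to 0.09 for the log2 fold change. In knockdown cells Ggps1 was 5.61 ± 0.265 RPKM, against 6.02 ± 0.161 RPKM in scrambled cells, with an interval of -0.18 to 0.00.

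Idi1, the isopentenyl diphosphate isomerase, was among the genes with the clearest opposite responses. Its levels were 19.6, 19.1 and 18.6 RPKM in overexpressing cells, against 35.0, 35.5 and 35.9 RPKM in empty vector cells. It had 61.0, 60.8 and 57.2 RPKM in knockdown cells, against 39.5, 38.6 and 42.5 RPKM in scrambled cells. Neither pair of groups overlapped, with overexpressing libraries lowest and knockdown libraries highest of all 12. The log2 fold changes were -0.86 (SE 0.042, adjusted p = 5.41e-09) and 0.56 (SE 0.042, adjusted p = 1.1e-06), and the responses differed by -1.42 (adjusted p = 2.26e-09), the most negative difference among the members. Of the 50-base words in its transcripts 25.3% also occur in transcripts of other genes, and how such reads were counted is not stated, so its absolute level is uncertain.

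Mvd, the mevalonate diphosphate decarboxylase, had 30.4, 28.0 and 27.2 RPKM in overexpressing cells, against 53.1, 54.0 and 53.4 RPKM in empty vector cells. In knockdown cells it had 91.4, 87.7 and 93.1 RPKM, against 72.5, 75.8 and 70.2 RPKM in scrambled cells. The groups were apart in both comparisons (log2 fold changes -0.89, adjusted p = 7.39e-09, and 0.31, adjusted p = 0.000125). Fdps, the farnesyl diphosphate synthase, was at a lower level: 6.36, 6.67 and 5.84 RPKM in overexpressing cells, against 10.5, 10.6 and 10.0 RPKM in empty vector cells. It was 11.2, 11.4 and 11.8 RPKM in knockdown cells, against 9.06, 8.42 and 8.38 RPKM in scrambled cells. It too moved both ways without overlap (-0.64, adjusted p = 2.08e-07, and 0.38, adjusted p = 4.57e-05). Of its transcript words 26.2% are shared with other genes, so its absolute level is uncertain.

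Among the other early enzymes, Acat2, the cytosolic thiolase that joins acetyl-CoA units, averaged 59.8 ± 3.79 RPKM in overexpressing cells and 76.2 ± 2.62 RPKM in empty vector cells, and 120.1 ± 6.41 RPKM in knockdown cells and 104.8 ± 3.32 RPKM in scrambled cells (SD, n = 3 each). It fell by 0.35 and rose by 0.19 on the log2 scale (adjusted p = 0.000164 and 0.00951). It shares 39.1% of its words with Acat3 and Tcp1, so reads may be split between them. Mevalonate kinase, Mvk, fell by 0.29 and rose by 0.34 (adjusted p = 0.00164 and 0.000521). Hmgcs1, the cytosolic HMG-CoA synthase, moved least of the 7 that fell, by 0.16 (adjusted p = 0.00904). In knockdown Hmgcs1 was 118.5 ± 4.98 RPKM, against 110.5 ± 1.94 RPKM in scrambled cells, and did not pass (log2 fold change 0.10, adjusted p = 0.0743; 0.00716 with median-ratio scaling). Phosphomevalonate kinase, Pmvk, fell by 0.70 with overexpression (adjusted p = 1.49e-05). With knockdown Pmvk had a log2 fold change of 0.04 and an interval of -0.14 to 0.22.

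**Figure D2:**
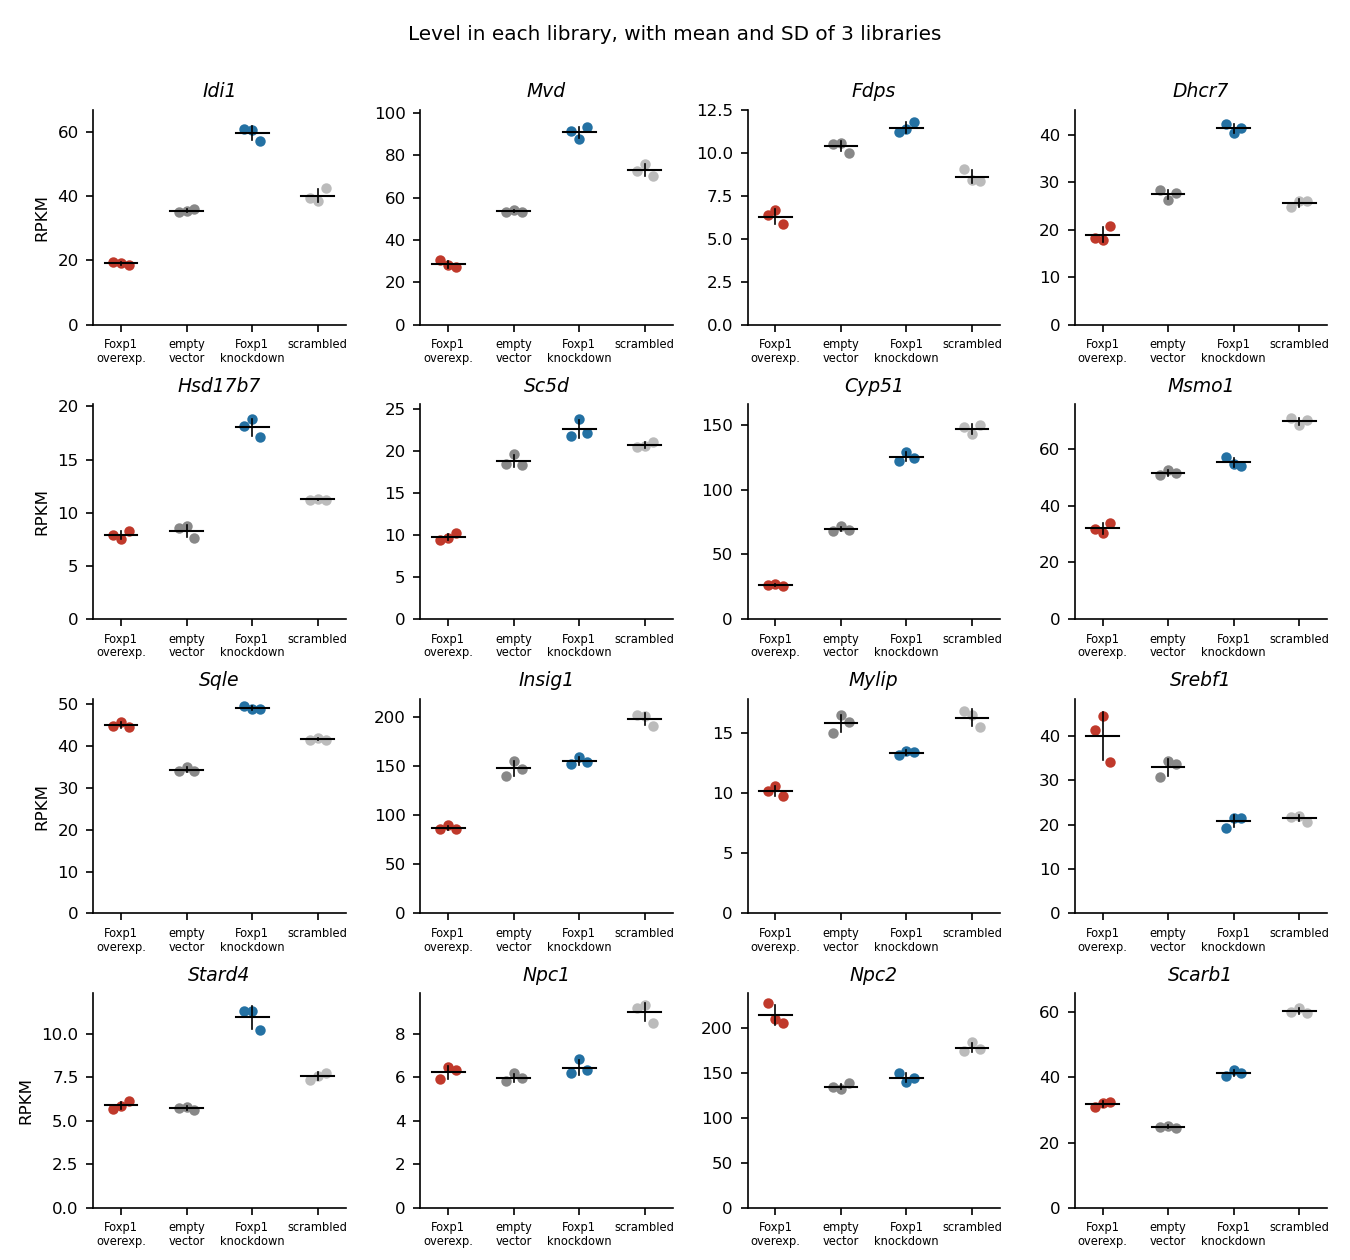
RPKM of 16 members in each of the 12 libraries, from 0 on each axis, by group. Points are libraries, horizontal lines are means and vertical lines are 1 SD of 3 libraries. Idi1, Mvd and Dhcr7 are lowest with overexpression and highest with knockdown, while Cyp51, Msmo1 and Insig1 are lower than their own controls in both.

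The late steps run from squalene to cholesterol, and most were likewise lower with overexpression and higher with knockdown. Under overexpression 8 of 12 fell and 1 rose (median -0.57), beside 20.3% and 31.0% of all tested genes. Under knockdown 8 rose and 2 fell (median 0.28), beside 18.7% and 31.0% of all tested genes. Sqle rose in both comparisons, Cyp51 and Msmo1 fell in both, Hsd17b7 rose with knockdown and was not called with overexpression, and Lbr and Ebp passed in neither.

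Sqle, squalene epoxidase, adds oxygen to squalene and is a control point of the pathway. It had 44.8, 45.8 and 44.5 RPKM in overexpressing cells, against 34.1, 34.9 and 33.9 RPKM in empty vector cells. In knockdown cells it had 49.4, 48.7 and 48.8 RPKM, against 41.5, 41.9 and 41.4 RPKM in scrambled cells. Every library with altered Foxp1 was above its controls (log2 fold changes 0.38, adjusted p = 3.05e-07, and 0.23, adjusted p = 4.83e-05). The difference between the responses was 0.15 (adjusted p = 0.00785), or 0.06 (adjusted p = 0.258) with median-ratio scaling. Sqle was the only member called upward in both comparisons, as were 4.72% of all tested genes.

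Cyp51, lanosterol demethylase (chromosome 5, 4081145 to 4104746, minus strand, GRCm38), had the largest fall among the 33 members under overexpression. It was 26.6, 27.3 and 25.6 RPKM in overexpressing cells, against 68.2, 71.6 and 68.7 RPKM in empty vector cells (ratio of means 0.381, log2 fold change -1.36, SE 0.038, adjusted p = 4.62e-11). In knockdown cells it was 122.3, 129.1 and 124.3 RPKM, against 148.7, 142.8 and 150.1 RPKM in scrambled cells. That was lower too, without overlap but by less (ratio 0.851, log2 fold change -0.23, adjusted p = 0.00035), and the responses differed by -1.13 (adjusted p = 6.29e-09).

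Msmo1, the methylsterol oxidase that acts after Cyp51, behaved alike in direction. Its levels were 31.7, 30.3 and 34.0 RPKM in overexpressing cells, against 50.6, 52.5 and 51.6 RPKM in empty vector cells. They were 57.1, 54.7 and 54.1 RPKM in knockdown cells, against 70.7, 68.4 and 70.0 RPKM in scrambled cells. Both falls passed (-0.67, adjusted p = 5.12e-08, and -0.33, adjusted p = 5.44e-05), and the difference between them was -0.34 (adjusted p = 0.000391). Nsdhl, the dehydrogenase of the same demethylation complex, instead fell by 0.63 with overexpression and rose by 0.34 with knockdown (adjusted p = 7.76e-07 and 0.000212).

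Dhcr7, which reduces the last double bond to give cholesterol, rose the most with knockdown. It had 18.2, 17.9 and 20.7 RPKM in overexpressing cells, against 28.3, 26.3 and 27.7 RPKM in empty vector cells. It had 42.2, 40.4 and 41.5 RPKM in knockdown cells, against 24.8, 26.0 and 26.1 RPKM in scrambled cells. The log2 fold changes were -0.52 (adjusted p = 4.16e-06) and 0.67 (adjusted p = 1.33e-06). Unlike most members, Dhcr7 did not differ beyond the threshold between the control groups (log2 fold change -0.09, scrambled over empty vector, adjusted p = 0.127).

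Hsd17b7, the ketosteroid reductase of the demethylation steps, rose with knockdown and was not called with overexpression. It was 7.86, 7.56 and 8.32 RPKM in overexpressing cells, against 8.52, 8.74 and 7.66 RPKM in empty vector cells, which overlap. It was 18.2, 18.8 and 17.1 RPKM in knockdown cells, against 11.2, 11.3 and 11.2 RPKM in scrambled cells, which do not (log2 fold change 0.63, adjusted p = 1.55e-06). The interval under overexpression was -0.17 to 0.05, and the responses differed by -0.70 (adjusted p = 4.81e-06).

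Sc5d, the lathosterol desaturase, showed the reverse balance, with a large fall and a small rise. It had 9.42, 9.62 and 10.2 RPKM in overexpressing cells, against 18.4, 19.6 and 18.3 RPKM in empty vector cells (-0.88, adjusted p = 6.08e-09). In knockdown cells it had 21.8, 23.8 and 22.1 RPKM, against 20.4, 20.6 and 21.0 RPKM in scrambled cells (0.12, adjusted p = 0.035). This last call ended without knockdown replicate 2 (adjusted p = 0.135), without scrambled replicate 1 (0.104) or 2 (0.0832), with TPM (0.166) and with no filter on low values (0.0634), and it did not reach an adjusted p under 0.01. The fall with overexpression was called in all alternatives run.

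Fdft1, squalene synthase, fell by 0.68 with overexpression and rose by 0.33 with knockdown (adjusted p = 1.21e-08 and 1.5e-05), and Lss, which closes squalene epoxide into lanosterol, fell by 0.36 and rose by 0.43 (adjusted p = 2.7e-05 and 1.19e-05). Fdft1 exons overlap those of Ctsb on the opposite strand over 18.3% of their length, and without a stated strand setting those reads cannot be assigned. Tm7sf2 and Lbr encode sterol reductases for the same step, and Lbr is also the lamin B receptor of the nuclear envelope. Tm7sf2 was 4.62 ± 0.0729 RPKM in overexpressing cells and 8.51 ± 0.0981 RPKM in empty vector cells, and 7.62 ± 0.612 RPKM in knockdown cells and 5.37 ± 0.20 RPKM in scrambled cells (SD, n = 3 each; log2 fold changes -0.76, adjusted p = 5.3e-08, and 0.43, adjusted p = 1.72e-05). Lbr was 3.31 ± 0.207 RPKM in overexpressing cells and 3.36 ± 0.141 RPKM in empty vector cells, and 5.72 ± 0.168 RPKM in knockdown cells and 5.57 ± 0.154 RPKM in scrambled cells. Neither Lbr comparison passed (intervals -0.11 to 0.08 and -0.06 to 0.13). Tm7sf2 was 1.34 to 1.51 times the level of Lbr in overexpressing libraries, against 2.41 to 2.64 times in empty vector libraries, and 1.22 to 1.48 times in knockdown libraries, against 0.94 to 0.99 times in scrambled libraries. Of Tm7sf2 exon bases 12.1% also belong to Vps51 on the same strand. Ebp, the sterol isomerase, had intervals of -0.04 to 0.12 in both comparisons.

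Summed over genes, the 8 early enzymes came to 217.4 to 233.2 RPKM in overexpressing libraries, against 312.0 to 321.7 RPKM in empty vector libraries. They came to 471.1 to 490.2 RPKM in knockdown libraries, against 407.8 to 411.5 RPKM in scrambled libraries. The 12 late enzymes came to 270.0 to 284.5 RPKM in overexpressing libraries, against 392.1 to 401.7 RPKM in empty vector libraries. They came to 570.8 to 578.8 RPKM in knockdown libraries, against 520.5 to 532.2 RPKM in scrambled libraries. Both sums were thus lowest with overexpression and highest with knockdown, and the control groups between them did not overlap each other. The early sum averaged 316.0 RPKM in empty vector and 410.0 RPKM in scrambled libraries, and the late sum 396.4 and 526.4 RPKM. The ranking of the 4 groups thus includes this difference between controls, and is no graded response to Foxp1 alone. These sums weigh high genes most and carry no test.

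**Figure D3:**
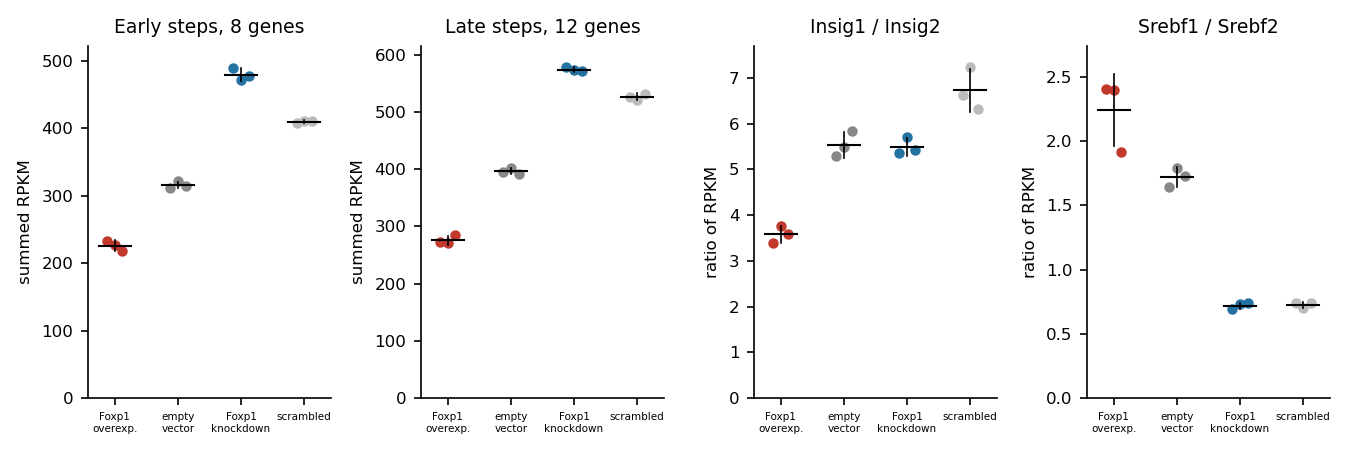
Summed RPKM of the early and late synthesis genes, and the ratios of Insig1 to Insig2 and of Srebf1 to Srebf2, in each of the 12 libraries by group, on axes from 0. Lines are the mean and 1 SD of 3 libraries. The sums rank overexpression, empty vector, scrambled and knockdown from low to high, whereas Srebf1 over Srebf2 is 1.64 or more in overexpression and empty vector libraries and 0.743 or less in knockdown and scrambled libraries. The ranking of the sums includes the difference between the control groups.

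The regulators of SREBP moved little, except for Insig1. Under overexpression 1 of 5 fell and 2 rose (median -0.10), and under knockdown 1 fell and 0 rose (median -0.04). Of all tested genes 20.3% fell and 31.0% rose with overexpression, and 31.0% fell and 18.7% rose with knockdown. Counts this near the shares are no result about the class. Insig1, which holds SCAP in the endoplasmic reticulum and is itself an SREBP target, had 86.6, 89.7 and 86.2 RPKM in overexpressing cells, against 140.4, 155.7 and 147.3 RPKM in empty vector cells. It had 152.4, 159.9 and 153.9 RPKM in knockdown cells, against 202.2, 201.7 and 190.8 RPKM in scrambled cells. It was lower in every library with altered Foxp1 than in its controls (-0.75, adjusted p = 2.57e-08, and -0.35, adjusted p = 4.42e-05), and the falls differed by -0.40 (adjusted p = 0.000154). In knockdown this was opposite in sign to the 13 synthesis enzymes that rose.

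Insig2, the second retention protein, had 25.5, 23.8 and 24.1 RPKM in overexpressing cells, against 26.5, 28.4 and 25.2 RPKM in empty vector cells. It had 28.5, 28.0 and 28.4 RPKM in knockdown cells, against 30.5, 27.8 and 30.2 RPKM in scrambled cells. The groups overlap in both comparisons and neither passed (-0.12, adjusted p = 0.0539, and -0.06, adjusted p = 0.35), although the first reached 0.0165 with median-ratio scaling. Insig1 was 3.39 to 3.77 times the level of Insig2 in overexpressing libraries, against 5.29 to 5.84 times in empty vector libraries, and 5.35 to 5.71 times in knockdown libraries, against 6.32 to 7.25 times in scrambled libraries.

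Srebf1, whose product also drives fatty acid synthesis, had 41.2, 44.5 and 34.0 RPKM in overexpressing cells, against 30.8, 34.4 and 33.6 RPKM in empty vector cells. Overexpression replicate 3 lay within the range of the controls. The rise passed narrowly (0.26, adjusted p = 0.0176) and ended without overexpression replicate 1 (0.0561) or 2 (0.0794) and without empty vector replicate 1 (0.0733). It also ended with TPM (0.098), with no filter (0.055) and with only the libraries compared (0.0538). Srebf1 was 19.3, 21.6 and 21.6 RPKM in knockdown cells, against 21.7, 21.9 and 20.7 RPKM in scrambled cells, which overlap (interval -0.22 to 0.14). The values are per gene and do not separate the isoforms of Srebf1.

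Srebf2, the main activator of cholesterol synthesis genes, did not pass in either comparison. It was 17.8 ± 0.725 RPKM in overexpressing cells and 19.1 ± 0.356 RPKM in empty vector cells, and 28.9 ± 0.95 RPKM in knockdown cells and 29.6 ± 1.64 RPKM in scrambled cells (SD, n = 3 each; adjusted p = 0.0778 and 0.593). With median-ratio scaling the first reached 0.0193 at a log2 fold change of -0.14. Scap, the escort protein, was 12.6 ± 1.15 RPKM in overexpressing cells and 10.9 ± 0.0822 RPKM in empty vector cells (0.20, adjusted p = 0.0276). That call ended without overexpression replicate 1 (0.0828) or 2 (0.111) and without empty vector replicate 1 (0.0654), 2 (0.0679) or 3 (0.0581), as well as with TPM (0.165) and with no filter (0.0722). In knockdown Scap had an interval of -0.14 to 0.16. Of its exon bases 13.2% overlap another annotated transcript on the opposite strand.

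Genes of uptake, transport and storage split in both comparisons. Under overexpression 1 of 5 rose and 2 fell (median 0.03), beside 31.0% and 20.3% of all tested genes. Under knockdown 1 rose and 3 fell (median -0.26), beside 18.7% and 31.0% of all tested genes. Counts of 5 genes are too few to tell the class from these shares.

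Npc2, the lysosomal protein that hands free cholesterol to NPC1 (chromosome 12, 84754562 to 84773152, minus strand, GRCm38), had the largest rise among the members under overexpression. It had 227.5, 210.6 and 205.8 RPKM in overexpressing cells, against 134.0, 132.3 and 138.4 RPKM in empty vector cells (ratio 1.59, log2 fold change 0.66, adjusted p = 1.03e-07). In knockdown cells it had 149.9, 140.0 and 144.0 RPKM, against 174.3, 184.3 and 176.3 RPKM in scrambled cells (ratio 0.811, log2 fold change -0.30, adjusted p = 0.000173). It thus moved in the direction of Foxp1 against its own control in each comparison, and the responses differed by 0.96 (adjusted p = 1.02e-07). Across groups it did not follow Foxp1, since all knockdown libraries were above all empty vector libraries. Scrambled over empty vector was 0.40 (adjusted p = 5.29e-06), a larger difference than the knockdown response.

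Npc1, the membrane partner of NPC2 in the lysosome, was called with knockdown only, and its responses differed by 0.48 (adjusted p = 7.73e-05). It had 5.90, 6.45 and 6.33 RPKM in overexpressing cells, against 5.82, 6.19 and 5.95 RPKM in empty vector cells, with overlap and an interval of -0.05 to 0.15. It had 6.18, 6.83 and 6.33 RPKM in knockdown cells, against 9.17, 9.32 and 8.51 RPKM in scrambled cells, without overlap (-0.43, adjusted p = 1.88e-05). The scrambled libraries were the high ones here, since the other 9 libraries lay between 5.82 and 6.83 RPKM.

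Stard4, a soluble sterol carrier that is a known SREBP2 target, had 5.68, 5.87 and 6.12 RPKM in overexpressing cells, against 5.75, 5.82 and 5.64 RPKM in empty vector cells. It had 11.3, 11.3 and 10.2 RPKM in knockdown cells, against 7.35, 7.59 and 7.77 RPKM in scrambled cells. It rose with knockdown without overlap (0.48, adjusted p = 5.19e-06) and overlapped under overexpression (interval -0.07 to 0.13).

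Mylip, the LXR-induced ubiquitin ligase that marks lipoprotein receptors for breakdown, had 10.2, 10.6 and 9.77 RPKM in overexpressing cells, against 15.0, 16.5 and 15.9 RPKM in empty vector cells. It had 13.2, 13.5 and 13.4 RPKM in knockdown cells, against 16.8, 16.5 and 15.5 RPKM in scrambled cells. It was lower in both without overlap (-0.59, adjusted p = 2.62e-07, and -0.26, adjusted p = 0.000386), by amounts that differed (-0.32, adjusted p = 0.000827). Soat1, which esterifies cholesterol for storage, was the lowest member in overexpressing cells, at 2.24 ± 0.22 RPKM, against 2.73 ± 0.0977 RPKM in empty vector cells (SD, n = 3 each; -0.20, adjusted p = 0.00706). With knockdown Soat1 was 7.53 ± 0.476 RPKM, against 8.29 ± 0.153 RPKM in scrambled cells, and did not pass (-0.13, adjusted p = 0.0698; 0.0328 with TPM).

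Of the genes of export and exchange, 2 of 3 rose and 1 fell with overexpression (median 0.20), beside 31.0% and 20.3% of all tested genes. With knockdown 2 fell and 0 rose (median -0.22), beside 31.0% and 18.7% of all tested genes. Counts of 3 genes are too few to tell the class from these shares. Scarb1 encodes SR-BI, the receptor that exchanges cholesterol with high-density lipoprotein (chromosome 5, 125277087 to 125341094, minus strand, GRCm38). It had 30.8, 32.0 and 32.4 RPKM in overexpressing cells, against 24.9, 25.2 and 24.4 RPKM in empty vector cells (0.34, adjusted p = 2.82e-06). It had 40.4, 42.1 and 41.3 RPKM in knockdown cells, against 60.0, 61.3 and 59.5 RPKM in scrambled cells (-0.53, adjusted p = 2.51e-07). Like Npc2 it was higher than its own control with overexpression and lower with knockdown, without overlap in either comparison. The responses differed by 0.88 (adjusted p = 1.59e-08). Across groups Scarb1 did not follow Foxp1, since all knockdown libraries were above all overexpressing libraries. Scrambled over empty vector was 1.25, a larger difference than either response.

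Abcg1, the transporter that passes cholesterol to mature high-density lipoprotein, had 4.40, 4.11 and 4.45 RPKM in overexpressing cells, against 5.39, 5.51 and 5.70 RPKM in empty vector cells. It had 3.80, 4.34 and 4.22 RPKM in knockdown cells, against 5.01, 5.15 and 4.69 RPKM in scrambled cells. Both were falls without overlap (-0.30, adjusted p = 0.000269, and -0.22, adjusted p = 0.00277), and a difference between them did not pass (interval -0.23 to 0.07). Abca1, which loads cholesterol onto lipid-poor apolipoprotein, was 44.3 ± 3.5 RPKM in overexpressing cells and 38.4 ± 2.07 RPKM in empty vector cells (SD, n = 3 each; 0.20, adjusted p = 0.041). This narrow call ended without overexpression replicate 2 (0.162) or 3 (0.0544), without empty vector replicate 1 (0.0933) or 3 (0.138), with TPM (0.19), with median-ratio scaling (0.0893) and with no filter (0.103). In knockdown Abca1 was 21.4 ± 2.45 RPKM, against 23.5 ± 0.856 RPKM in scrambled cells, with overlap (-0.13, adjusted p = 0.169, or 0.0155 without knockdown replicate 2).

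The overexpression and knockdown comparisons share no library, and setting them side by side sorts the members by their pair of calls. Down with overexpression and up with knockdown were 11 members, all synthesis enzymes: Acat2, Mvk, Mvd, Idi1, Fdps, Fdft1, Lss, Tm7sf2, Nsdhl, Sc5d and Dhcr7. Of all tested genes 6.00% had this pair of calls. Down in both were 5 members, Cyp51, Msmo1, Insig1, Mylip and Abcg1, beside 5.79% of all tested genes. Up with overexpression and down with knockdown were Npc2 and Scarb1, beside 12.1%, and 5 members were called in neither, beside 27.6%. In the test of the difference itself, 19 members had a lower response to overexpression than to knockdown and 6 a higher one, beside 20.3% and 34.6% of all genes. With median-ratio scaling these were 20 and 3 members, beside 27.1% and 26.8% of all genes, and with mitochondrial reads left out of library size 19 and 6.

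**Figure D4:**
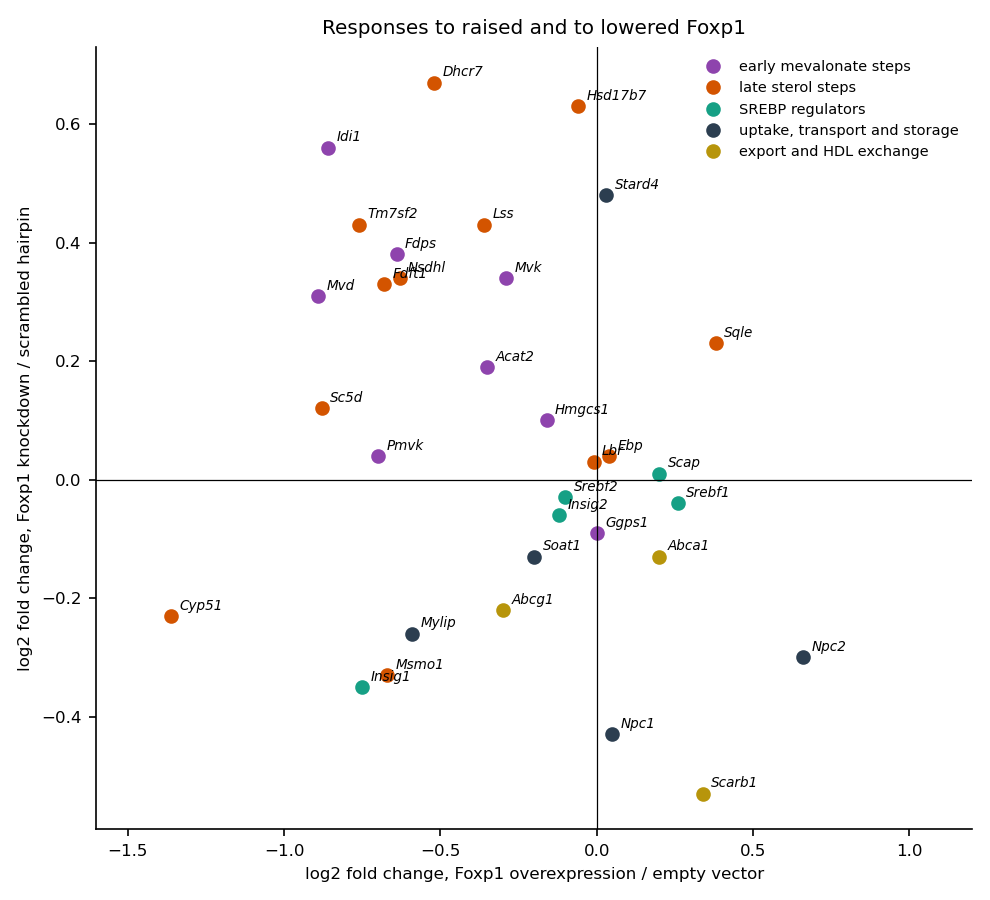
Log2 fold change of each member with overexpression (horizontal) against that with knockdown (vertical), coloured by role. The upper left holds the 11 synthesis genes called in opposite directions, the lower left Cyp51, Msmo1, Insig1, Mylip and Abcg1, the lower right Npc2 and Scarb1, and Sqle is the gene in the upper right that was called in both.

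The control groups differed from each other in most members. Scrambled shRNA cells were higher than empty vector cells in 21 of 33 members, beside 44.8% of all tested genes, and lower in 7, beside 27.0%. With median-ratio scaling these were 18 and 9 members, beside 35.0% and 35.5% of all genes, and with mitochondrial reads left out of library size 19 and 8. Soat1 was 8.18, 8.24 and 8.47 RPKM in scrambled cells, against 2.74, 2.63 and 2.83 RPKM in empty vector cells (log2 fold change 1.32, adjusted p = 6.43e-10), the largest such difference among the members. Scarb1 (1.25), Cyp51 (1.07) and Srebf2 (0.60) were higher in scrambled cells, and Abca1 (-0.69), Srebf1 (-0.59) and Tm7sf2 (-0.58) were lower. Srebf1 was 0.699 to 0.743 times the level of Srebf2 in scrambled libraries, against 1.64 to 1.79 times in empty vector libraries. These differences share libraries with both Foxp1 comparisons, and the vector type, the culture and the library preparation of the 2 control groups cannot be told apart. In 12 of the 33 members the gap between controls was larger than either Foxp1 response: Acat2, Hmgcs1, Lss, Lbr, Ebp, Srebf1, Srebf2, Insig2, Npc1, Soat1, Abca1 and Scarb1. The share of all tested genes with such a gap was not counted, so this is a limit on reading these genes and no trait of the members.

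Lists of neighbouring genes were taken from textbook knowledge, with earlier results of these data known. Their counts are read beside the shares of all tested genes, which were 31.0% up and 20.3% down with overexpression and 18.7% up and 31.0% down with knockdown. Of 14 fatty acid genes driven by SREBP1, 9 fell and 2 rose with overexpression (median -0.32), and 4 rose and 5 fell with knockdown (median -0.10). The desaturase Scd1 was 2672 ± 31.5 RPKM in overexpressing cells and 5873 ± 208 RPKM in empty vector cells, and 3914 ± 208 RPKM in knockdown cells and 3050 ± 129 RPKM in scrambled cells (SD, n = 3 each). Fads1, another desaturase, fell in both (-0.73, adjusted p = 3.99e-09, and -0.51, adjusted p = 4.94e-07). Of 7 genes of acetyl-CoA supply and ketone bodies, 6 were tested; 5 fell and 1 rose with overexpression (median -0.22), and 3 rose and 1 fell with knockdown (median 0.09). The citrate carrier Slc25a1 fell by 0.24 on the log2 scale with overexpression (adjusted p = 6.51e-05).

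Against the same shares of all tested genes (31.0% up and 20.3% down with overexpression, 18.7% up and 31.0% down with knockdown), counts near them are no result about a list. Of 9 genes of SREBP processing and of protein breakdown at the endoplasmic reticulum, not all of it sterol-regulated, 3 rose and 1 fell with overexpression (median 0.07). With knockdown 1 rose and 1 fell (median 0.04). Erlin1, an endoplasmic reticulum protein that binds cholesterol and restrains SREBP, fell in both, by 0.62 and 0.39 (adjusted p = 8.33e-07 and 7.96e-05), like Insig1. Ubxn8 rose with knockdown (0.60, adjusted p = 2.85e-06). Of 14 oxysterol and LXR genes 8 were tested, with 1 up and 3 down under overexpression (median 0.02) and 4 up and 3 down under knockdown (median 0.05). Rxra, the partner receptor of LXR, fell in both (-0.39, adjusted p = 7.51e-06, and -0.33, adjusted p = 5.2e-05), while its relative Rxrb rose by 0.25 and fell by 0.38 (adjusted p = 7.62e-05 and 4.4e-06).

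For the lists of sterol transfer and of isoprenoids the shares of all tested genes are again 31.0% up and 20.3% down with overexpression, and 18.7% up and 31.0% down with knockdown. Of 16 genes of lipoprotein uptake and sterol transfer 13 were tested, with 6 up and 2 down under overexpression (median 0.13) and 3 up and 6 down under knockdown (median -0.18). Lipa, the lysosomal acid lipase that frees cholesterol from its esters, was 42.0 ± 1.11 RPKM in overexpressing cells and 24.8 ± 0.392 RPKM in empty vector cells (0.74, adjusted p = 7.39e-09), and 31.8 ± 0.758 RPKM in knockdown cells and 31.5 ± 1.26 RPKM in scrambled cells (0.02, adjusted p = 0.723). Gramd1b, which carries cholesterol from the plasma membrane inward, fell by 0.67 and rose by 0.42 (adjusted p = 6.62e-08 and 1.01e-05). In the isoprenoid branch of 12 genes, 5 rose and 1 fell with overexpression (median 0.05), and 2 rose and 5 fell with knockdown (median -0.07). Fntb, the beta subunit of protein farnesyltransferase, was 50.2 ± 1.1 RPKM in overexpressing cells and 15.7 ± 0.425 RPKM in empty vector cells, and 17.7 ± 0.38 RPKM in knockdown cells and 24.3 ± 0.72 RPKM in scrambled cells (log2 fold changes 1.62, adjusted p = 6.85e-12, and -0.43, adjusted p = 1.98e-06). Pdss1, of ubiquinone side chain synthesis, rose with knockdown (0.46, adjusted p = 3.45e-05).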

How the data were processed

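RNA-seq was measured in 12 libraries, 3 in each of 4 groups. The authors deposited 1 matrix of RPKM values per gene, which turned out to be divided by 1000; values were multiplied by 1000 here. HISAT2 2.1.0, featureCounts, Subread 1.5.3 and mm10 are named in the submitters' processing notes, without roles; strand and multi-mapping settings are not given in the sources used here. The deposited RPKM values of low genes fell on multiples of 1 read, with 98.8% to 99.0% of values whole to within 0.05 of a read, which gave the read totals. A value of 0.0260 to 0.0284 RPKM was worth 1 read in a kilobase.

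Gene identifiers were matched to GENCODE M21 names (28896 of 28948). Testing used genes that reached 1 RPKM in 3 or more libraries. Differences of log2(RPKM + 1) were fitted in R 4.3.3 by limma 3.58.1, in 1 fit over the 4 groups with moderated, trended variances and Benjamini-Hochberg adjustment over 11245 genes; the same fit gave the difference between the overexpression and knockdown responses and scrambled against empty vector. The procedure was tested on simulated data. Values in every library are given, per role, for the 2 members with the smallest adjusted p in each Foxp1 comparison, members called against the majority of their role, and members whose same-signed responses differed; from each neighbouring list, the 2 genes with the smallest adjusted p are named, except 1 that is not reported here. The members and lists were chosen with earlier results of these data known. Alternatives covered the pseudocount, the filter, TPM and median-ratio scaling, the variance model, the threshold, the libraries fitted and left-out replicates; mitochondrial reads left out of library size and limma's voom on the recovered reads were added after seeing the data. Sums and ratios carry no test.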

Additional observations from a re-analysis of the deposited data

How the results depend on the processing

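No called change of a member reversed under the alternatives run. The number of members up with overexpression, 6, was 3 with no filter on low values, with TPM and at an adjusted p under 0.01, and 3 to 5 with a replicate left out; Srebf1, Scap and Abca1 are the calls concerned. The call of Sc5d with knockdown also ended under several alternatives. Members up in the response difference, 6, were 3 with median-ratio scaling and 5 to 7 with a replicate left out. With a replicate left out, members down with overexpression were 19 to 20, members up and down with knockdown 13 to 15 and 8 to 10, members down in the response difference 19, and members up and down in scrambled against empty vector 19 to 21 and 5 to 7. Deviations of same-numbered replicates had correlations of -0.013, 0.118 and 0.081 for overexpression and its controls, and -0.073, 0.049 and -0.059 for knockdown and its controls. With 3 replicates these values cannot decide whether the numbers pair samples, and the sources used here state no pairing. The replicate block gave 6 members up and 20 down with overexpression and 15 up and 8 down with knockdown. Voom on the recovered reads gave 6 and 20, and 14 and 9. Of the values of single genes, 2041 kept direction and side of the threshold, 69 lost the call, 19 gained one and 19 changed sign, all of them uncalled and near 0. With overexpression, Ggps1 was -0.05 with TPM, -0.03 with median-ratio scaling and -0.02 to 0.04 with a replicate left out; Lbr was 0.01 without mitochondrial reads and -0.04 to 0.02 with a replicate left out; Ebp was -0.01 with TPM; Stard4 was -0.01 with TPM and -0.003 with median-ratio scaling. With knockdown, median-ratio scaling gave 0.01 for Srebf1 and 0.02 for Srebf2, TPM gave -0.02 for Scap, and the ranges with a replicate left out were -0.07 to 0.01 for both Srebf1 and Srebf2 and -0.03 to 0.08 for Scap. The causes were not tested. Depth did not limit the members, which had 539 reads or more, and 3 libraries per group limit the precision.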
